A study of Mus musculus with 8 samples.

Results

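The mitochondrial ribosomal protein genes are the nuclear genes whose symbols begin with Mrpl, for the large subunit, or Mrps, for the small subunit, followed by a number. Members were chosen by symbol alone, and 77 of the 11354 genes in the count table met that rule, 48 named Mrpl and 29 named Mrps. The mitochondrial ribosome translates the few proteins that mitochondrial DNA encodes, which are core subunits of the respiratory chain and the ATP synthase. Its RNA comes from mitochondrial DNA, but all of its proteins are made in the cytosol from nuclear genes and imported. Many have relatives in bacterial ribosomes, others exist only in mitochondria, and T cells are known to raise mitochondrial translation when they are activated.

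Poly(A) RNA was sequenced from 8 libraries of mouse CD4 T cells, on the Black6 background, after transfer into RAG-/- hosts, which lack T and B cells of their own. The transferred cells were labelled wild type in 4 libraries (WT 1, WT 2, WT 4 and WT 5) and Nlrp6-/- in 4 (KO 1, KO 2, KO 4 and KO 5), numbered by host, and the knock-out allele is not described. The labels give the spleen as the source in one place and the colonic lamina propria in others, and they give no age or time after transfer. The labels do not say whether a host number stands for 1 mouse with both kinds of cells, so the p-values reflect how these libraries vary, which may be technical. Totals ran from 35198192 to 40310721 counts, and a single member had between 179 and 3345 counts in a library. CPM are TMM-scaled counts relative to library size, on the usual CPM scale, RPKM are CPM per kilobase of the deposited gene length, and a log2 fold change is KO label over WT label ± SE.

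Nlrp6 itself, a NOD-like receptor gene, went against the labels, with 5, 3, 3 and 8 counts in WT 1, WT 2, WT 4 and WT 5 and 487, 329, 477 and 648 in KO 1, KO 2, KO 4 and KO 5. The targeted part of the gene is not given, so directions below are those of libraries labelled KO or WT and not of a genotype. Of the 13 T cell identity genes measured, which include Cd3e and Cd4, edgeR called 0 higher and 2 lower (Cd247 and Zap70). Of all genes, 6.20% were called higher and 3.84% lower. The log2 fold change was below 0 for 11 of the 13 and above 0 for 2, with a median of -0.10. An unadjusted edgeR p below 0.05 was found for 6 of them, against 23.5% of all genes. Their summed level was 9787 to 10980 CPM in the libraries labelled WT and 9242 to 10110 CPM in those labelled KO. Myeloid markers moved with the labels: 17 of 19 measured were called higher and 0 lower. None was at 0 counts in any library. Their sum was 60.7 to 107 CPM in the libraries labelled WT and 315 to 974 CPM in those labelled KO. Every gene of the count table had at least 0.987 CPM in its fourth-highest library. Markers such as Clec4a3 (mean 0.266 CPM under the WT label, 4.83 under the KO label) were thus measured only through the libraries labelled KO. The shares of markers called higher are therefore in part set by that floor. KO 4 and KO 5 had the highest myeloid sums, 974 and 717 CPM, and these 2 libraries also share a library code in the submitters' descriptions (8, against 7 for the others). Of 11 dendritic cell and MHC class II markers 8 were measured and 6 called higher, while Zbtb46 and Itgax were not (edgeR adjusted p = 0.833 and 0.405). These 8 summed to 64.5 to 112 CPM under the WT label and 462 to 1335 CPM under the KO label. Of 10 neutrophil markers 5 were measured and 4 called higher, with sums of 7.82 to 14.1 and 25.2 to 57.8 CPM. Flt3, Xcr1, Clec9a, Ly6g and Mpo were among the listed markers not in the count table. Of 5 epithelial and 2 red cell markers 0 were called by edgeR. Of 7 B and plasma cell markers 1 was measured, at 0.764 to 2.29 CPM in all 8 libraries. The part of these markers in the member results was not tested. A fit with the myeloid level as a covariate is given below, but that level went with the label and cannot be separated from it. In bulk samples fewer cells of a type and less RNA per cell cannot be told apart.

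The mitochondrial ribosomal protein genes differed little between the labels. edgeR's quasi-likelihood test with Benjamini-Hochberg adjustment over all genes called 2 of the 77 members (2.60%) at an adjusted p below 0.05, against 10.0% of all genes tested. Mrpl30 of the large subunit was the member called higher, where 6.20% of all genes were, and Mrps23 of the small subunit was the member called lower, where 3.84% of all genes were. By unadjusted p below 0.05 the same 2 of 77 passed, against 23.5% of all genes. The CPM of the labels' libraries did not overlap for these 2 members, whereas 16.0% of all genes showed no overlap. The rest of the family lay between the fold changes of Mrps6 (-0.21 ± 0.11) and Mrps18c (0.15 ± 0.07), neither of which passed (adjusted p = 0.289 and 0.276).

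The start regions of Mrps23 and Mrpl30 are shown because these are the members that differed, 250 bases before and 30 bases after the annotated start, from RefSeq's GRCm38.p6, plus strand. The capitals mark the letters of a motif that is searched across the family further on.
Mrps23, chr11:88204138-88204417: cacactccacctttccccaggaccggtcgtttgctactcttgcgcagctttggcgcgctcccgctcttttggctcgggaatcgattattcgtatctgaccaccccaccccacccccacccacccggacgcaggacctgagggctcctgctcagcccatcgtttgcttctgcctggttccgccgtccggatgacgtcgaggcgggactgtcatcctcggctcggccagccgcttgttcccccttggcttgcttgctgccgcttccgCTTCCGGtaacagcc
Mrpl30, chr1:37890227-37890506: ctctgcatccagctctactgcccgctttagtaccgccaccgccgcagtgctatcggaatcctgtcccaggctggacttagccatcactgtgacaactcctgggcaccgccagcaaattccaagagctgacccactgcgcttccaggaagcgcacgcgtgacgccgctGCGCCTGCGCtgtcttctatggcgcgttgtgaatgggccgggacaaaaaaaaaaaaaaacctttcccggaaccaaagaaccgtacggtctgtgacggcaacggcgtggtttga
In Mrps23 the capitals are the ETS letters on the reverse strand, at bases 16 to 22 after the start. In Mrpl30 they are the NRF1 letters on the reverse strand, at bases -83 to -74.

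Mrps23 encodes a small subunit protein that has no bacterial relative. Its gene lies on chromosome 11 from 88194106 to 88211507 (GRCm38), so the start used above is inside the span that RefSeq gives the gene. It was at 49.5, 45.3, 48.8 and 45.4 CPM in WT 1, WT 2, WT 4 and WT 5 and at 40.2, 35.6, 36.4 and 38.4 CPM in KO 1, KO 2, KO 4 and KO 5. Every library labelled KO lay below every library labelled WT. The means were 47.2 ± 2.18 and 37.6 ± 2.03 CPM (SD, n = 4 each), and the log2 fold change was -0.33 ± 0.06 with a 95% interval of -0.45 to -0.20 and an edgeR adjusted p of 0.00469. That is a level 0.797 times as high. The call held whichever library was omitted, with adjusted p from 0.00532 to 0.0188, and without KO 4 and KO 5 together. It was lost with the mean myeloid level as a covariate (log2 fold change -0.153), a fit in which 7 of all genes were called. The myeloid sums of the labels did not overlap, so that fit cannot separate the label from the myeloid level. No conclusion is drawn from calls lost in it. On its left, Cuedc1 overlaps the annotated span of Mrps23 by gene ends but shares no exon with it in GENCODE, and did not pass (-0.61 ± 0.21, adjusted p = 0.116). On its right, Msi2, a gene for an RNA-binding protein 128 kb away, fell (-0.52 ± 0.06, adjusted p = 0.000512). Of the 10 measured genes nearest to Mrps23, 5 on each side, edgeR called 2 lower and 2 higher, all 4 on the right, beside 10.0% of all genes. The span of 0610039H22Rik, among these 4, lies inside that of Msi2, so they are not all separate places.

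Mrpl30 encodes the large subunit's relative of a bacterial ribosomal protein, and its gene lies on chromosome 1 from 37890477 to 37898338. It was at 24.1, 23.2, 24.6 and 23.99 CPM in WT 1, WT 2, WT 4 and WT 5 and at 27.7, 27.2, 28.1 and 28.8 CPM in KO 1, KO 2, KO 4 and KO 5. Every library labelled KO lay above every library labelled WT, in each case within a narrow range. The means were 23.98 ± 0.594 and 27.9 ± 0.653 CPM (SD, n = 4 each), and the log2 fold change was 0.22 ± 0.05 with a 95% interval of 0.12 to 0.32 and an edgeR adjusted p of 0.0132. That is a level 1.17 times as high. The call was lost without WT 2 (edgeR adjusted p = 0.0516), without KO 4 and KO 5 together (0.0879) and with the library code as a term (0.105). Only KO 4 and KO 5 carried library code 8, so the code fit takes the label effect from the other libraries. It is thus no separate check, and both of these fits gave a log2 fold change of 0.195. The call was also lost with the myeloid covariate. The log2 fold change stayed between 0.186 and 0.231 over all alternatives. Mitd1, whose annotated span ends 0.028 kb before that of Mrpl30 begins, did not pass (0.04 ± 0.10, edgeR adjusted p = 0.860). The other measured genes nearest to Mrpl30 on either side were not called either.

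Mrps6, a small subunit protein with a bacterial relative, was not called with all libraries but was called without KO 4. It was at 24.4, 26.1, 24.1 and 22.9 CPM in WT 1, WT 2, WT 4 and WT 5, beside 18.9, 19.4, 26.6 and 19.2 CPM in KO 1, KO 2, KO 4 and KO 5. KO 4 was the highest of all 8 libraries, and the other libraries labelled KO were the lowest. With all libraries the log2 fold change was -0.21 ± 0.11 and did not pass (edgeR adjusted p = 0.289). Without KO 4 it was -0.349 and passed (adjusted p = 0.00547). It also passed without KO 4 and KO 5 together (-0.35, adjusted p = 0.0225) and with limma-voom and its library weights (-0.314, adjusted p = 0.0338). These were the only 3 of 18 alternatives in which Mrps6 passed. With the library code as a term its log2 fold change was -0.35 and did not pass (edgeR adjusted p = 0.159). Slc5a3, a transporter gene annotated on the same strand, shares 159 of the 846 exon bases of Mrps6 in GENCODE, so reads there cannot be assigned to one gene. It did not pass (0.06 ± 0.18, adjusted p = 0.888). Gm49711, which is not among the genes of the count table, shares 305 bases on that strand.

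**Figure D1:**
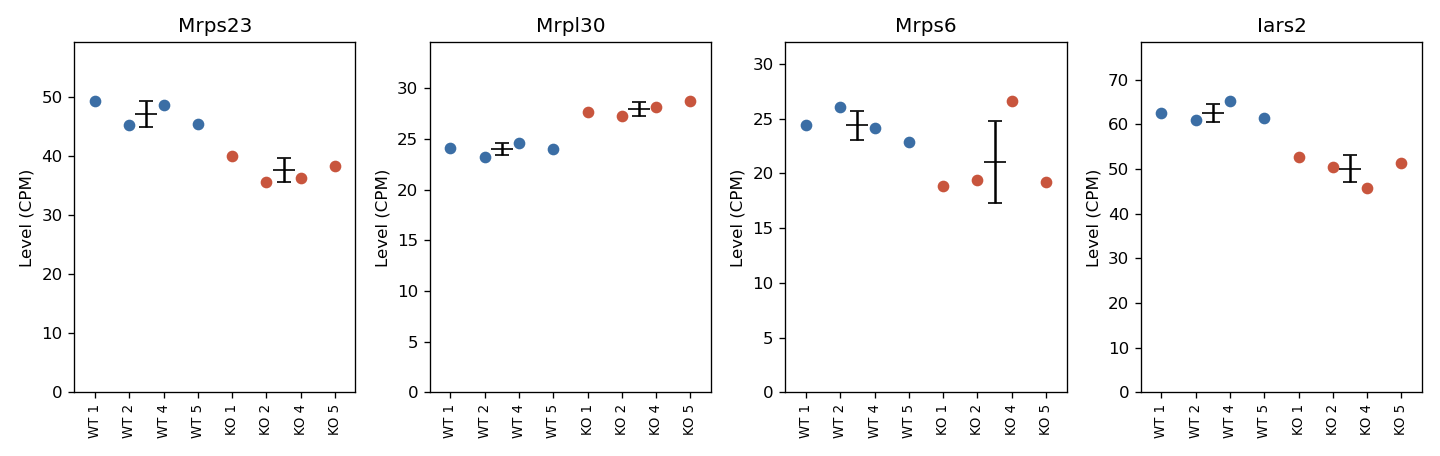
Level in CPM (y axis, from 0) of Mrps23, Mrpl30, Mrps6 and Iars2 in each of the 8 libraries (x axis; blue for the WT label, red for the KO label), with the mean and SD of each label in black. Mrps23 and Iars2 were lower and Mrpl30 higher in every library labelled KO, while for Mrps6 KO 4 (26.6 CPM) stood above KO 1, KO 2 and KO 5 (18.9 to 19.4 CPM).

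The large subunit genes had a median log2 fold change of 0.01, with 27 of 48 above 0 and 21 below, beside a median of -0.00258 over all genes. After Mrpl30, the largest values were those of Mrpl22, Mrpl45 and Mrpl54. Mrpl22, whose product lines the exit tunnel, was at 7.28 to 7.59 CPM in the libraries labelled WT and at 8.10, 6.72, 5.603 and 6.66 CPM in KO 1, KO 2, KO 4 and KO 5 (-0.14 ± 0.11, edgeR adjusted p = 0.531). Mrpl45, which helps to hold the ribosome at the inner membrane, was at 21.0 to 24.2 CPM under the WT label and at 23.1, 25.5, 19.8 and 28.7 CPM in KO 1, KO 2, KO 4 and KO 5 (0.13 ± 0.11, adjusted p = 0.539). In both genes KO 4 was the lowest of the 8 libraries, and the labels overlapped. Mrpl54, a protein found only in mitochondria, was at 17.1 to 17.4 CPM under the WT label and at 17.2, 20.3, 18.7 and 19.3 CPM in KO 1, KO 2, KO 4 and KO 5 (0.12 ± 0.06, adjusted p = 0.266). Mrpl12, which forms part of the stalk that binds translation factors and is also known to bind the mitochondrial RNA polymerase, was at 28.7 ± 1.25 and 27.6 ± 2.78 CPM under the WT and KO labels (SD, n = 4 each), with 23.6 CPM in KO 4.

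The small subunit genes had a median log2 fold change of -0.01, with 14 of 29 above 0 and 15 below. Mrps12, the relative of a bacterial protein of the decoding centre, was at 13.4 to 16.2 CPM under the WT label and 15.0 to 16.4 CPM under the KO label (0.07 ± 0.07, edgeR adjusted p = 0.657). Mrps17, another protein with a bacterial relative, was at 19.5 to 21.2 CPM and 20.3 to 25.3 CPM (0.13 ± 0.07, adjusted p = 0.349). The labels overlapped for both genes. The 3 Mrps18 genes are related to one another but hold different places in the ribosome. Mrps18c, the small subunit's counterpart of the bacterial protein, was at 17.1 ± 1.05 and 18.9 ± 1.47 CPM under the WT and KO labels. Mrps18b, also in the small subunit, was at 14.6 ± 1.64 and 15.7 ± 0.630 CPM (0.10 ± 0.08, adjusted p = 0.554), and Mrps18a, which sits in the large subunit despite its name, was at 14.4 ± 0.733 and 13.8 ± 1.40 CPM (-0.06 ± 0.08, adjusted p = 0.749).

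Names and structure part ways for 2 further genes. Mrps30, likewise placed in the large subunit, was at 31.3 ± 1.57 and 31.1 ± 1.28 CPM under the WT and KO labels (SD, n = 4 each; log2 fold change -0.01 ± 0.05, edgeR adjusted p = 0.963). Mrps36, now known from the 2-oxoglutarate dehydrogenase complex and not as a stable ribosomal subunit, was at 5.85 ± 0.708 and 6.21 ± 0.953 CPM (0.09 ± 0.14, adjusted p = 0.776). With Mrps18a and Mrps30 moved to the large subunit and Mrps36 left out, the medians were 0.01 over 50 large subunit genes and 0.00256 over 26 small subunit genes, and the counts of calls were the same. Among large subunit genes, those with a bacterial relative had a median of 0.01 (28 genes, 1 called) and those found only in mitochondria a median of 0.02 (20 genes, 0 called by edgeR, with 0 at an unadjusted p below 0.05). Among small subunit genes the same medians were -0.00725 (16 genes, 0 called) and 0.01 (10 genes, 1 called).

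**Figure D2:**
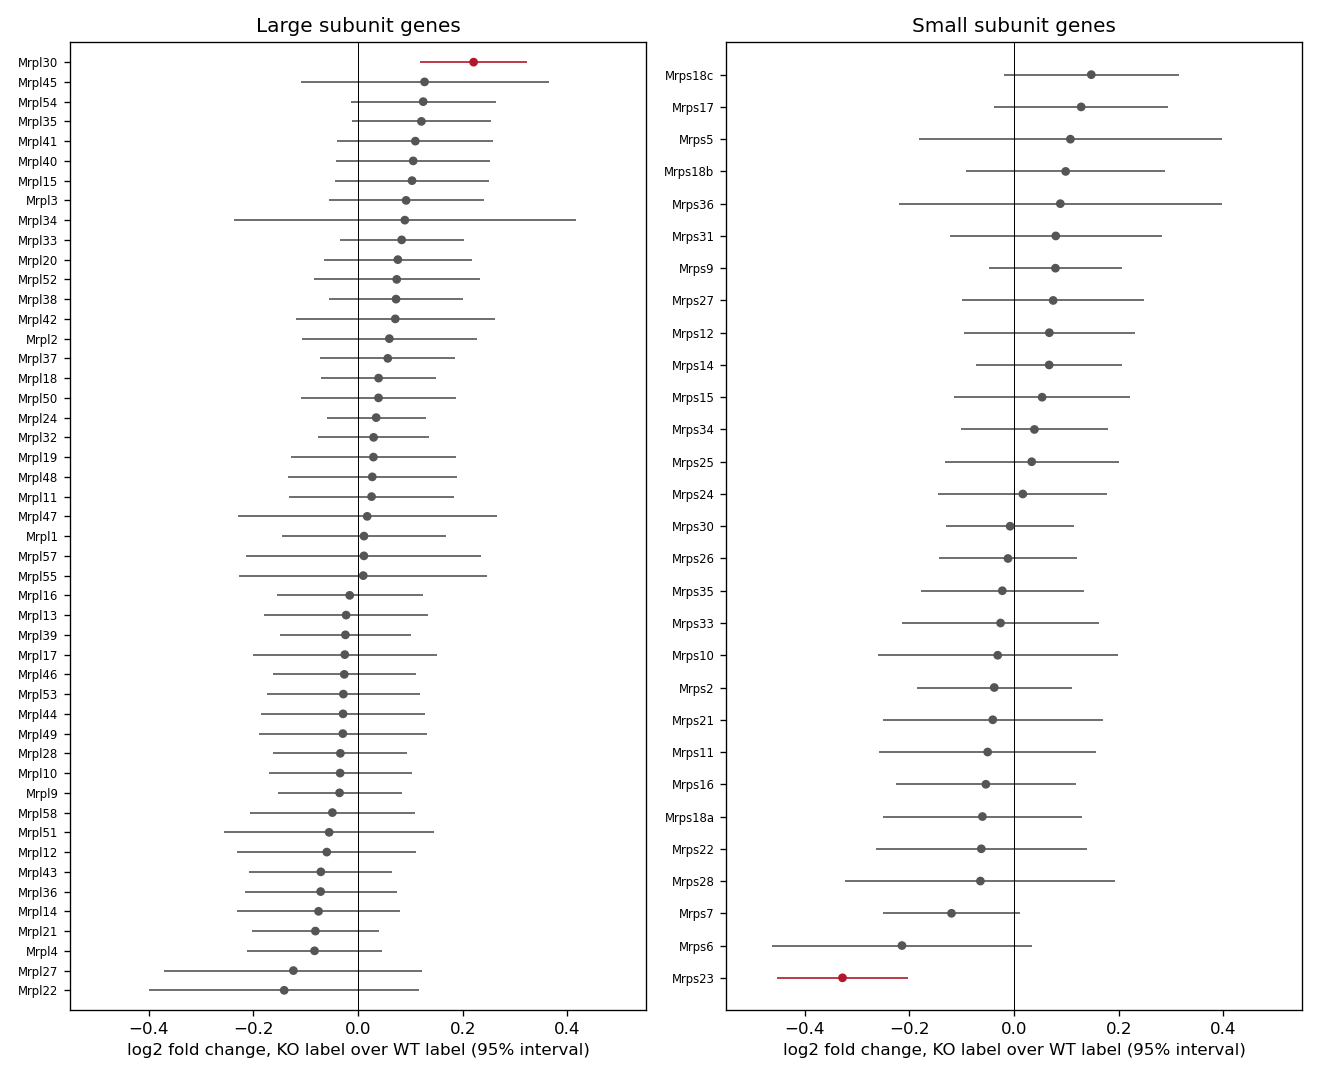
Log2 fold change of each of the 77 members (x axis, KO label over WT label; points with 95% intervals), large subunit left and small subunit right, ordered by value. Mrpl30 and Mrps23, the members that passed the test, are in red, and every interval lies between -0.462 and 0.416.

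The intervals limit how far the other members could have moved. All 77 members had a 95% interval, taken gene by gene from the edgeR fit, that lay inside ± 0.5 on the log2 scale, a change of 1.41-fold, whereas 75.5% of all genes did. The widest limits were -0.462 for Mrps6 and 0.416 for Mrpl34. Among genes of like level the share was also higher: of the 1559 other genes with a mean CPM between 14.3 and 27.3, the quartiles of the members, 86.0% had such an interval, and 76 were called higher and 60 lower. The median SE was 0.0701 for the members and 0.0762 for all genes. At this precision, small shifts such as those of Mrps7 (-0.12 ± 0.06, adjusted p = 0.256) and Mrpl35 (0.12 ± 0.06, adjusted p = 0.259) were not called.

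Summed over each subunit, the levels overlapped between the labels. The 48 large subunit genes summed to 1166, 1143, 1170 and 1127 CPM in WT 1, WT 2, WT 4 and WT 5 and to 1153, 1167, 1102 and 1234 CPM in KO 1, KO 2, KO 4 and KO 5. The 29 small subunit genes summed to 593, 590, 592 and 582 CPM in WT 1, WT 2, WT 4 and WT 5 and to 572, 598, 554 and 608 CPM in KO 1, KO 2, KO 4 and KO 5. In both subunits the lowest and the highest of the 8 libraries were KO 4 and KO 5, so the libraries labelled KO enclosed those labelled WT. The means were 1151 ± 19.8 and 1164 ± 54.4 CPM for the large subunit and 589 ± 4.88 and 583 ± 24.3 CPM for the small subunit under the WT and KO labels (SD, n = 4 each). The family took 0.160% to 0.186% of all counts in a library. The ratio of the mean RPKM of large to small subunit genes was 1.04 to 1.07 in the libraries labelled WT and 1.05 to 1.10 in those labelled KO.

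**Figure D3:**
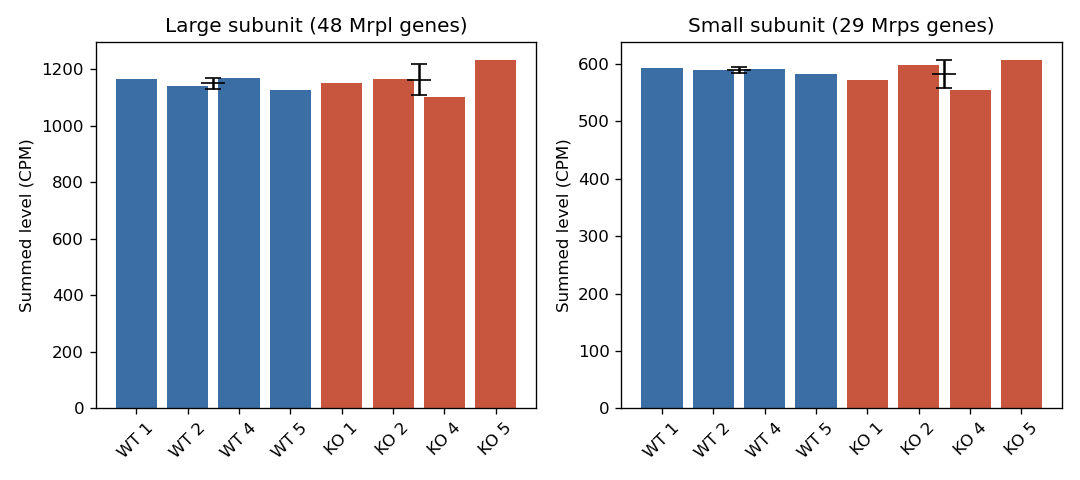
Summed level in CPM (y axis, from 0) of the 48 large subunit genes (left) and the 29 small subunit genes (right) in each library (x axis; blue for the WT label, red for the KO label), with the mean and SD of each label in black. KO 4 is lowest and KO 5 highest in both panels, at 1102 and 1234 CPM and at 554 and 608 CPM.

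The split between KO 4 and KO 5 was also seen member by member. KO 4 held the lowest CPM of the 8 libraries for 28 of 77 members (36.4%, against 19.4% of all genes), and KO 5 held the highest for 33 (42.9%, against 14.4% of all genes) and the lowest for 0. The median member deviated from its 8-library mean log2 CPM by -0.08 in KO 4 and by 0.08 in KO 5, and by -0.02 to 0.03 in the other libraries. The 87 measured genes of the nuclear part of oxidative phosphorylation, which the mitochondrial ribosome's products join, showed the same 2 extremes, with median deviations of -0.07 in KO 4 and 0.09 in KO 5. The 81 cytosolic ribosomal protein genes had median deviations of -0.02 in KO 4 and 0.05 in KO 5, with their highest value in KO 1 (0.06). Of these comparison groups, edgeR called 1 of 87 oxidative phosphorylation genes, lower, where 3.84% of all genes were. It called 2 of 81 cytosolic ribosomal protein genes, higher, where 6.20% of all genes were. KO 4 and KO 5 share a library code, so the code does not differ between these libraries. KO 4 had the highest myeloid sum and KO 5 the second highest. The part of these cells or of the library code in the split was not tested.

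Levels differed far more between members than between labels, although the proteins they encode meet in one particle. Mean RPKM over the 8 libraries ran from 2.02 for Mrpl17 to 58.4 for Mrpl24 in the large subunit, a ratio of 28.9, and from 2.34 for Mrps25 to 66.2 for Mrps16 in the small subunit, a ratio of 28.3. The medians were 15.1 RPKM for the large and 15.5 RPKM for the small subunit genes, beside 10.3 RPKM for all genes. After Mrpl24, the highest large subunit genes were Mrpl52, known only from mitochondria, at 48.1 RPKM, and Mrpl9, with a bacterial relative, at 45.1 RPKM. After Mrps16, known from an inherited disorder of mitochondrial translation, the highest small subunit genes were Mrps21 at 35.3 RPKM and Mrps6 at 28.6 RPKM. The lowest large subunit genes after Mrpl17 were Mrpl1, a protein of the stalk beside the site where spent tRNA leaves, at 3.83 RPKM, and Mrpl35 at 4.18 RPKM. The lowest small subunit genes after Mrps25 were Mrps22, in which inherited defects are also known, at 2.51 RPKM, and Mrps31 at 3.57 RPKM. These levels rest on the deposited gene lengths, which count 7017 bases for Mrpl17 and 566 for Mrps16, so a long length that is little used lowers the RPKM of a gene.

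No gene at either end of the range was called. Mrps16 was at 36.5, 39.9, 40.7 and 35.6 CPM in WT 1, WT 2, WT 4 and WT 5 and at 38.0, 40.1, 32.1 and 36.9 CPM in KO 1, KO 2, KO 4 and KO 5 (-0.05 ± 0.08, edgeR adjusted p = 0.753). Mrpl24 was at 66.9 to 69.4 CPM under the WT label and at 71.9, 65.8, 71.4 and 71.4 CPM in KO 1, KO 2, KO 4 and KO 5 (0.03 ± 0.04, adjusted p = 0.698). Mrpl17 was at 14.3 ± 0.624 and 14.04 ± 1.26 CPM, and Mrps25 at 14.03 ± 1.11 and 14.3 ± 0.574 CPM under the WT and KO labels (SD, n = 4 each). The labels overlapped for all of these genes. The members' median coefficient of variation within a label was 5.11% under the WT label and 6.82% under the KO label, beside 6.75% and 7.48% for all genes.

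**Figure D4:**
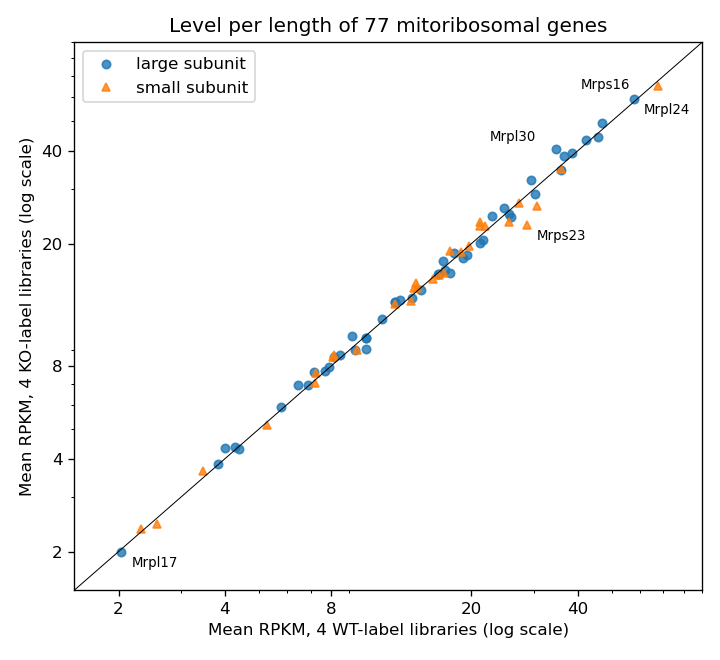
Mean RPKM of each of the 77 members over the 4 libraries labelled WT (x axis, log scale) and the 4 labelled KO (y axis, log scale), circles for the large and triangles for the small subunit, with the line of equal level. The family spans 2.02 to 66.2 RPKM along the line, and Mrps23 below it and Mrpl30 above it are the members that passed the test.

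By position, the members were spread over 17 chromosomes, with 11 on chromosome 11 and 8 on chromosome 17. Of the 11 on chromosome 11, Mrps23 was the one called, 28.5 Mb from the long non-coding RNA gene BC018473, a position chosen from earlier results of these data. The 3 members nearest to BC018473 were Mrpl38 (0.613 Mb away, 0.07 ± 0.06), Mrps7 (1.14 Mb, -0.12 ± 0.06) and Mrpl58 (1.34 Mb, -0.05 ± 0.07), and none passed (edgeR adjusted p = 0.514, 0.256 and 0.758). Mrpl46 and Mrps11 lie 41 bases apart on chromosome 7 and had log2 fold changes of -0.03 and -0.05. In GENCODE M21, 26 of the 77 members share exon bases with another gene, and for 14 the partner is in the count table. The largest overlaps with a measured partner were those of Mrps25 with Nr2c2 (58.2% of its exon bases), Mrpl19 with Gcfc2 (39.2%) and Mrpl24 with Rrnad1 (38.2%), all on opposite strands, so these counts are uncertain where the counting ignored strand. Among partners outside the count table, Gm42688 shares all 695 exon bases of Mrpl53 on the same strand, so strand cannot separate their reads. Gm16279 shares 59.1% of those of Mrps18b, on the opposite strand. Mrpl27, Mrpl48 and Mrps36 have annotated pseudogenes that could share reads with them.

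The start regions of the family were searched for the letters of 4 motifs. RefSeq promoters of 300 bases, 250 before and 50 after the start, were found for 68 members and for 9075 genes of the count table, and each motif was sought on both strands. The ETS letters CCGGAAG, the core read by GABP and its relatives, were in 26 of 68 members (38.2%), in 21.8% of the genes of the count table and in 9.93% of all 27025 genes with a promoter. The NRF1 motif, of the nuclear respiratory factor, is the one in capitals in Mrpl30, with the sixth letter of its reverse strand left free, and it was found in 13 members (19.1%), against 12.1% of the count table and 5.19% of all. High shares were not particular to the mitochondrial ribosome: the ETS letters were in 24 of 60 cytosolic ribosomal protein genes with a promoter, and the NRF1 motif in 19 of 75 nuclear oxidative phosphorylation genes (25.3%). The YY1 letters ATGGCGGC were in 12 members (17.6%), against 6.10% of the count table and 2.60% of all. They were in 6.67% of the cytosolic ribosomal protein genes and 10.7% of the nuclear oxidative phosphorylation genes with a promoter. The E-box CACGTG, read by Myc among others, was in 5 members (7.35%), against 11.8% of the count table and 8.09% of all. By subunit, the NRF1 letters were in 10 of 42 large and 3 of 26 small subunit genes, and the ETS letters in 15 of 42 and 11 of 26. Overlap between matches of different motifs was not counted, and a match describes letters only.

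**Figure D5:**
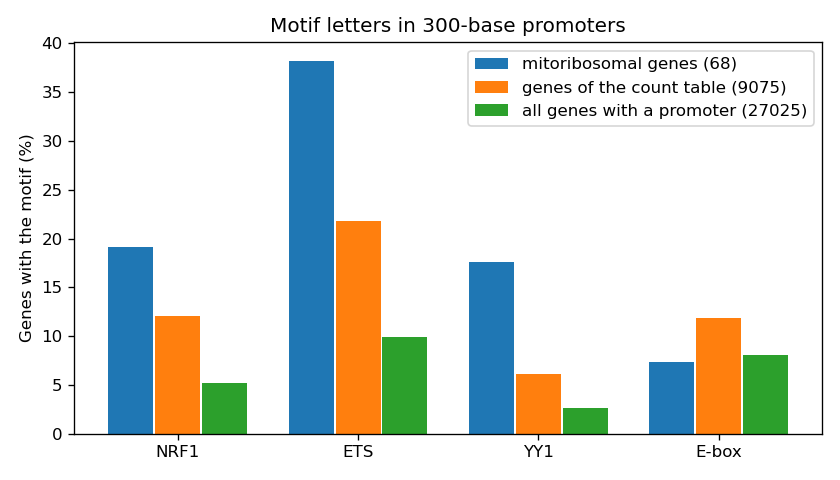
Percentage of genes (y axis, from 0) whose 300-base promoter holds the letters of each motif (x axis), for the 68 mitochondrial ribosomal protein genes with a promoter, the 9075 genes of the count table and all 27025 genes. The members' bar is the highest of its group for ETS, NRF1 and YY1 (38.2%, 19.1% and 17.6%) and the lowest for the E-box (7.35%).

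Genes for factors known to read such sites were not called. Gabpa and Gabpb1, the subunits of GABP, were at 99.0 ± 1.19 and 95.2 ± 3.05 CPM and at 69.5 ± 6.24 and 74.6 ± 4.98 CPM under the WT and KO labels (SD, n = 4 each; edgeR adjusted p = 0.419 and 0.461). Myc, which drives growth and ribosome production in activated T cells, was at 68.0, 50.2, 61.2 and 77.2 CPM in WT 1, WT 2, WT 4 and WT 5 and at 70.1, 55.4, 60.5 and 73.4 CPM in KO 1, KO 2, KO 4 and KO 5 (0.02 ± 0.13, adjusted p = 0.968). The labels overlapped. Of the 9 regulators measured, edgeR called 0, with 0 at an unadjusted p below 0.05.

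The rest of the mitochondrial translation machinery held 1 called gene. Iars2, the isoleucyl-tRNA synthetase of mitochondria, was at 62.5, 61.0, 65.3 and 61.3 CPM in WT 1, WT 2, WT 4 and WT 5 and at 52.6, 50.3, 45.7 and 51.4 CPM in KO 1, KO 2, KO 4 and KO 5. Every library labelled KO lay below every library labelled WT, and Iars2 fell by 0.32 on the log2 scale (SE 0.05, edgeR adjusted p = 0.00395; 0.00385 to 0.0172 with 1 library left out). It was the only one of 20 tRNA charging genes to be called, where 10.0% of all genes were. It was not called with the myeloid covariate (-0.0182). Of the 20, 5 had an unadjusted edgeR p below 0.05, where 23.5% of all genes did. Among these 5, Iars2, Lars2 and Vars2 were lower under the KO label, while Aars2 (0.187 ± 0.0822) and Yars2 (0.185 ± 0.0788) were higher. The largest change in that list was that of Lars2, the leucyl-tRNA synthetase of mitochondria, which did not pass (log2 fold change -0.82 ± 0.30, edgeR adjusted p = 0.130). Lars2 was at 615 ± 294 and 347 ± 40.8 CPM under the WT and KO labels (SD, n = 4 each). The next highest gene of the list was Tars2, at 81.0 ± 2.98 and 82.0 ± 5.74 CPM. The reason for the far higher level of Lars2 was not tested. Of the 5 subunits without an Mrp number edgeR called 0, with 0 at an unadjusted p below 0.05. Among them Gadd45gip1, which sits near the exit tunnel, was at 18.3 ± 1.27 and 19.9 ± 1.59 CPM, and Dap3, a GTP-binding protein of the small subunit, at 52.0 ± 2.18 and 49.6 ± 1.94 CPM under the WT and KO labels.

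Of the 17 translation factors edgeR called 0, with 2 at an unadjusted p below 0.05. Mtif3, an initiation factor, was at 19.2, 17.5, 19.2 and 17.1 CPM in WT 1, WT 2, WT 4 and WT 5 and at 14.7, 13.8, 17.0 and 15.5 CPM in KO 1, KO 2, KO 4 and KO 5. Its labels did not overlap, its log2 fold change was -0.26 ± 0.08, and its edgeR adjusted p was 0.0696. It passed in 6 of 18 alternatives, among them DESeq2 (adjusted p = 0.0362), limma-voom (0.0219) and the fit without KO 4 (0.0236). Oxa1l, which inserts the new proteins into the inner membrane, was at 64.4 ± 3.85 and 59.4 ± 1.49 CPM (adjusted p = 0.201), and Tufm, the elongation factor that brings charged tRNA, was at 34.4 ± 0.594 and 34.6 ± 2.15 CPM (0.01 ± 0.05, adjusted p = 0.944).

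Of 28 measured genes for assembly and ribosomal RNA modification edgeR called 0, with 1 at an unadjusted p below 0.05, the RNA methyltransferase gene Mrm2 (3.15 ± 0.512 and 2.30 ± 0.305 CPM under the WT and KO labels, adjusted p = 0.134). Mterf3, whose product acts on mitochondrial transcription and ribosome assembly, was at 34.3 ± 0.952 and 36.9 ± 1.70 CPM (adjusted p = 0.256). Of 13 genes for mitochondrial DNA upkeep, transcription and RNA processing edgeR called 0, with 1 at an unadjusted p below 0.05, the RNA helicase gene Supv3l1 (0.16 ± 0.06, adjusted p = 0.118). Tfam, which packages and transcribes mitochondrial DNA, was at 44.2 ± 2.41 and 43.6 ± 1.77 CPM (SD, n = 4 each), and the transcription factor Tfb2m at 8.09 ± 0.742 and 9.37 ± 1.11 CPM (adjusted p = 0.292). DESeq2 and limma-voom were run on all of these genes. The ones named by the rule given further on, other than Mtif3 and Iars2, were called by neither. For Lars2 and the other synthetase genes named after their values were seen, the results of these fits are not given. The 5 lists and the regulators had median log2 fold changes between -0.01 and 0.00308, beside -0.00258 for all genes.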

How the data were processed

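TruSeq Stranded mRNA libraries gave single 81-base reads, per the labels' protocols, and STAR and mm10 are named in the submitters' processing notes. How reads were counted (tool, gene models, strand) is not given in the sources used here. The authors deposited raw counts per gene, with gene lengths as another column; every gene had at least 0.987 CPM in its fourth-highest library. All value columns were used.

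Counts were scaled by TMM and tested in edgeR 4.0.16 (R 4.3.3) with estimateDisp, glmQLFit and glmQLFTest on the label alone, after filterByExpr, which kept all 11354 genes. The SE is the absolute log2 fold change over the square root of F. The common biological coefficient of variation was 0.116. Replicates differed beyond counting noise (lowest chi-square per degree of freedom 13.5). Log2 CPM used a prior count of 2. Alternatives were limma-voom (3.58.1), DESeq2 (1.42.0), other scalings and filters, the host number or library code as a term, each library left out, subunits by structure, and, added after seeing the data, a fit without KO 4 and KO 5 and a myeloid covariate. Members matched RefSeq (GRCm38.p6) by Entrez identifier in 77 of 77 cases.

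Named genes are called members, the 4 largest changes and the 3 highest and lowest RPKM of each subunit, Mrps18a to Mrps18c, Mrps30, Mrps36, Mrpl12 and Mrps12, called or otherwise lowest-p genes of the other lists, Myc, Tfam, Tufm and Nlrp6. Mrps7, Mrpl34, Mrpl38, Mrpl58, Mrpl46, Mrps11, Lars2, Tars2, Vars2, Aars2, Yars2, single marker genes and the neighbouring and overlapping genes were named after their values were seen. The members and lists were chosen with earlier results of these data known.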

Additional observations from a re-analysis of the deposited data

Results flagged for a closer look

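In 84 sets of 4 libraries (the named genes and the subunit sums under each label), 7 held a library that stood apart from the other 3 by more than Dixon's 95% critical value for the gap over the range. Chance flags about 1 in 20 such sets. In KO 4, Mrps6 was at 26.6 CPM against 18.9 to 19.4, Mrps18b at 14.7 CPM against 15.9 to 16.1, and Mterf3 at 39.4 CPM against 35.8 to 36.4 in the other libraries labelled KO. In KO 1, Mrpl1 was at 14.8 CPM against 16.5 to 16.6 and Supv3l1 at 27.8 CPM against 25.9 to 26.1. In KO 2, Mrpl24 was at 65.9 CPM against 71.4 to 71.9. In WT 2, Mrps17 was at 19.5 CPM against 21.2 in the other libraries labelled WT. Of these, Mrps6 is the gene whose call changed when its library was left out.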

How the results depend on the processing

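Of 77 members edgeR called 2, and the alternatives called 0 to 3. Left out 1 at a time, libraries gave 1 to 3 calls, 0 to 1 of large subunit genes higher and 1 to 2 of small subunit genes lower. With the library code as a term 1 member was called (0 of the large subunit) beside 745 of all genes, 249 of them lower, against 1140 and 436. Only KO 4 and KO 5 carried the other code, so this fit takes the label effect from the remaining libraries. With the myeloid covariate, chosen after seeing the data, 0 members and 7 of all genes were called (5 higher and 2 lower). The myeloid sums of the labels did not overlap, so this fit cannot separate the label from the myeloid level. limma-voom called 2 small subunit genes lower. So did the fit without KO 4 and KO 5, also chosen after seeing the data, which called 0 of the large subunit. Over all genes, leaving out 1 library gave 804 to 1197 calls and 276 to 509 lower (276 without KO 1 and 277 without WT 1). The deviations of same-numbered libraries gave mixed correlations, from -0.138 to 0.256 over 4 pairs, with 2 of them over 0.1. Of 8 libraries, 3 correlated best with their own number. These values do not settle whether a host number stands for 1 mouse. With the host number as a block 1020 genes were called, among them the same 2 members, Mrps23 and Mrpl30. Subunit medians moved by less than the spread between libraries in every alternative. Members had as few as 179 counts in a library, so counting error is part of their spread. RPKM rest on deposited lengths.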
